A study of Mus musculus with 16 samples.

Results

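Here the transcripts of 6 transcription factor genes of the formative epiblast, *Otx2*, *Gbx2*, *Zic2*, *Zic5*, *Pou3f1* and *Sall2*, were followed across 8 mouse embryonic stem cell (ESC) lines that differ in the SOX2 protein they carry. The members were chosen by gene symbol in the annotation of the array, which holds 1 probe for each of the 6, among 16593 named genes. All lines were derived from *Sox2*-null ESCs that carry a mouse *Sox2* transgene repressed by doxycycline, a tet transactivator and a constitutive DsRed transgene. The 3 S95 clones (1, 2 and 4) and the 2 S113 clones (4 and 5) expressed mutant human SOX2 from a hygromycin-resistant PiggyBac plasmid, and the 2 SWT clones (4 and 5) expressed wild-type human SOX2 from the same plasmid. These 7 clones grew in doxycycline (1 μg/mL), which represses the mouse transgene, after selection with hygromycin (300 μg/mL). TSS, a single line, grew without doxycycline and so kept mouse *Sox2* on. S95 is the name in the labels, which describe a *Sox2* 95 mutant. The study made 2 double mutants that cannot pair with OCT4 on motifs of the *Utf1* type. In that type the OCT4 and SOX2 sites lie side by side. Residue 95 is changed only in the double mutant that gave no rescued ESC colonies. These clones are taken here to be the other double mutant, because the study profiled 3 clones of it on arrays. The label does not match this choice, and which mutant the clones carry was not tested. By the study, the mutant chosen here still pairs with OCT4, though more weakly, on *Hoxb1* motifs, whose sites also lie side by side. S113 is the mutant made against pairing on the spaced *Fgf4* type. Every line apart from TSS was expanded from an individual colony, so each is a single clone. S95 clones 1 and 4 share a low stretch of chromosome 14, described below, and whether they arose separately was not tested.

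SOX2 and OCT4 bind DNA together and hold ESCs in the pluripotent state. When the epiblast leaves the naive state it passes through a formative phase, in which a new set of transcription factors takes over enhancers before the germ layers are specified. OTX2 is the homeobox factor that guides OCT4 to enhancers of this phase, POU3F1 (OCT6) is a POU factor of the epiblast and of early neural cells, and ZIC2 and ZIC5 are zinc finger factors whose genes lie next to each other in opposite orientation. GBX2 is a homeobox factor that can also sustain naive self-renewal downstream of LIF and STAT3 in mouse ESCs, and SALL2 is a spalt-type zinc finger factor related to SALL4.

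RNA of each line was hybridized to 2 Illumina bead arrays, 16 in all, and levels are given as log2 of the background-corrected, quantile-normalized intensity. The labels do not say whether the 2 arrays of a line hold separate cultures, so the 2 were averaged and the lines compared, and p-values measure the spread between these clones only. An array detected 48.6% to 52.5% of its probes (detection p under 0.05), and the 2 arrays of a line correlated across genes at 0.994 to 0.998. A gene was called when its Benjamini-Hochberg adjusted p over 9303 tested genes, from limma, was under 0.05. The probe for *Sox2* read 5.59 ± 0.66 over the S95 clones (SD, n = 3), 7.85 ± 0.26 over the S113 clones (SD, n = 2), 6.39 in TSS and 4.83 ± 0.07 over the SWT clones (SD, n = 2), and S95 was lower than S113 by limma (-2.26, adjusted p = 0.0202), while no group passed against SWT. Leaving out S95 clone 4 or any one S113 or SWT clone ended that call (adjusted p = 0.0554 to 0.146), and leaving out S95 clone 2 brought S113 against SWT past the threshold (0.00596). Where that probe lies in the gene is not given in the files, and it serves as no check of the labels or of the amount of each construct. All 8 ESC markers examined, among them *Pou5f1*, *Nanog* and *Zfp42*, were detected on all 16 arrays.

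Of the 6 members, 4 were lower in S95 than in SWT, and *Gbx2*, *Zic2*, *Otx2* and *Sall2* differed by -2.49, -1.85, -1.38 and -1.14 on the log2 scale. Among all tested genes 12.1% were called lower in this comparison and 23.1% were called in either direction. The 1123 lower calls stood beside 1022 higher ones, but after scaling by medians rather than quantiles there were 641 lower and 1490 higher. The median difference of the 5 tested members was -1.38, against -0.01 over all tested genes. *Pou3f1* was not called, and *Zic5* was detected on 0 of 16 arrays and was not tested. Against S113, S95 was lower in 3 members, *Otx2*, *Gbx2* and *Zic2*, in a comparison that called 5.08% of genes lower and 9.26% in either direction. No member was called in S113 against SWT or in TSS against SWT, where 0% of all genes were called by limma. This fit shares the spread of a gene among all groups, so the S95 clones enter these comparisons too. The median SD between clones was 0.23 in S95, 0.12 in S113 and 0.11 in SWT. The absence of calls is thus no measure of likeness to SWT. At an unadjusted p under 0.05, 3 members passed in S113 against SWT, where 863 genes (9.28%) did, and 1 member in TSS against SWT, where 914 genes (9.82%) did. In S95 against SWT the clones of the 2 groups did not overlap for 4 of the 5 tested members, and for 60.0% of all tested genes.

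**Figure D1:**
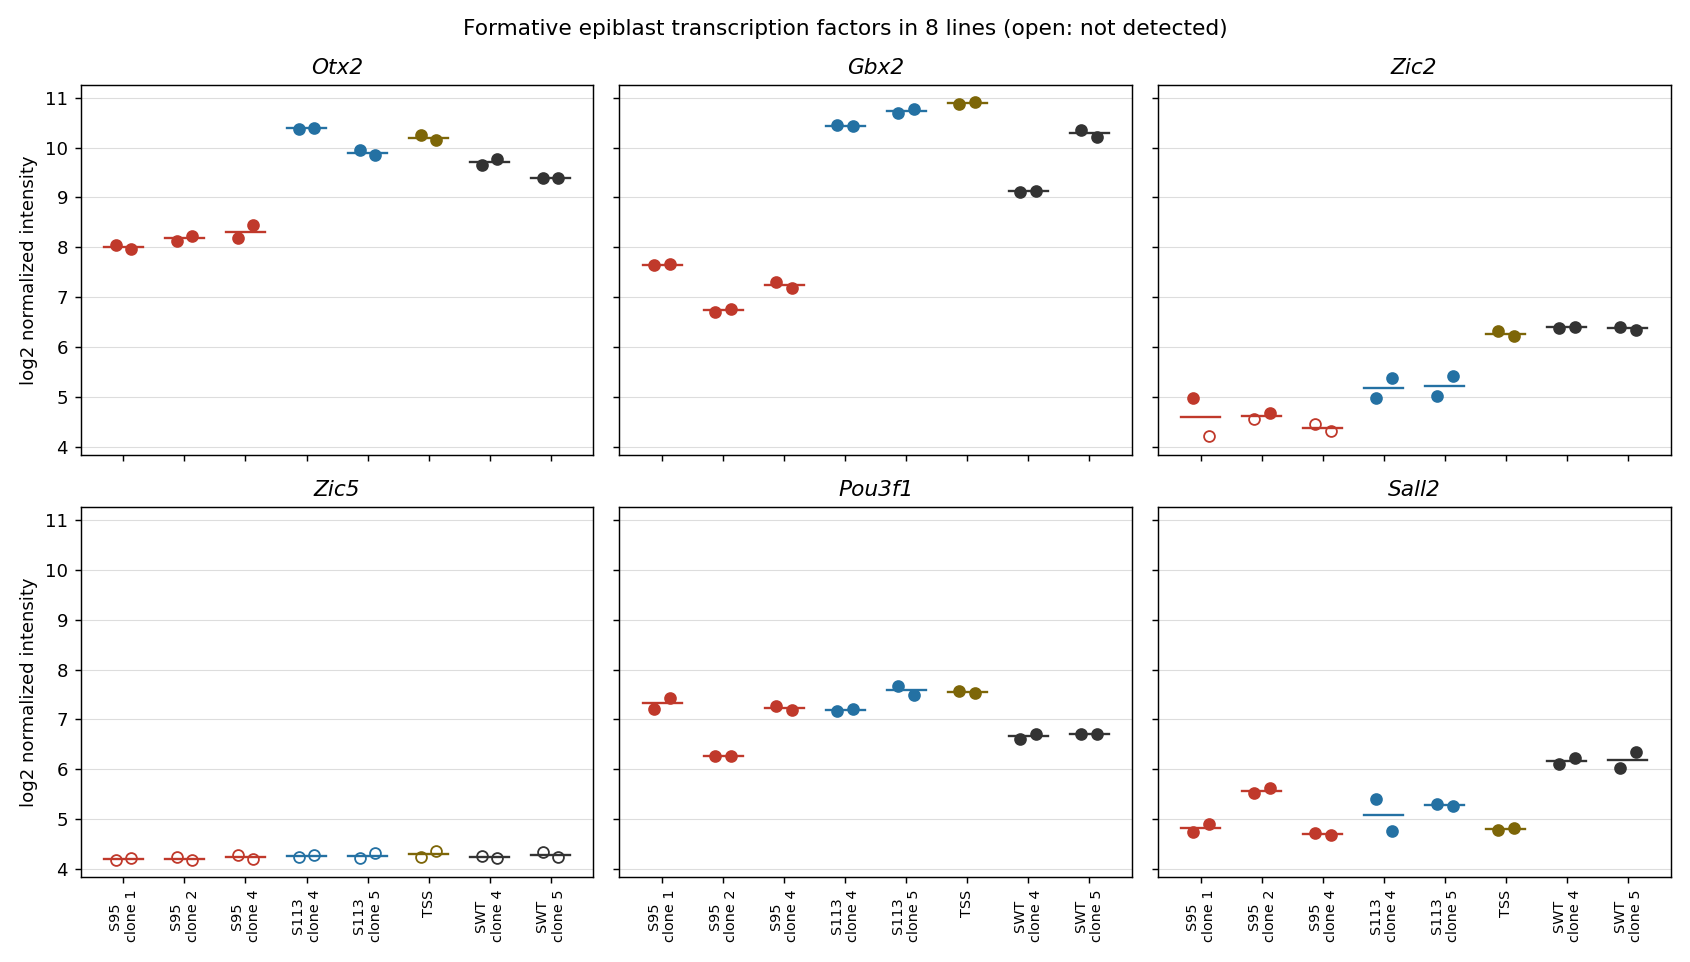
Log2 normalized intensity (vertical axis) of the 6 members in the S95, S113, TSS and SWT lines, with a point for each of the 2 arrays of a line and a bar at their mean. Open points were not detected. *Otx2* and *Gbx2* are low in all 3 S95 clones, *Zic2* is at the limit of detection there and intermediate in S113, and *Zic5* is undetected throughout.

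*Otx2* read 8.06 and 7.96 on the 2 arrays of S95 clone 1, 8.13 and 8.23 in clone 2, and 8.19 and 8.44 in clone 4. It read 10.38 and 10.39 in S113 clone 4, 9.95 and 9.85 in S113 clone 5, and 10.25 and 10.14 in TSS. In SWT it read 9.64 and 9.78 in clone 4 and 9.38 on both arrays of clone 5. Every S95 array was below every other array, and the S113 and TSS arrays were all above the SWT arrays. Among the clones next to each other in this order, only S95 clones 2 and 4 had arrays that overlapped. The S95 clones averaged 8.17 ± 0.15 (SD, n = 3), the S113 clones 10.14 ± 0.35 (SD, n = 2) and the SWT clones 9.55 ± 0.23 (SD, n = 2). S95 was thus 2.60-fold lower than SWT (log2 difference -1.38, SE 0.20, adjusted p = 0.00833 by limma) and 3.93-fold lower than S113 (-1.97, SE 0.20, adjusted p = 0.00981). The first call was lost without SWT clone 4 (-1.22, adjusted p = 0.0771), and the second without S113 clone 4 (-1.73, adjusted p = 0.104). Against SWT, S113 differed by 0.59 (SE 0.22, adjusted p = 0.491) and TSS by 0.65 (SE 0.27, adjusted p = 0.512), neither of which passed.

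*Gbx2* spanned the widest range of the members, 4.16 on the log2 scale between its lowest and its highest line. The arrays read 7.65 and 7.66 in S95 clone 1, 6.71 and 6.76 in clone 2, and 7.31 and 7.18 in clone 4. They read 10.45 and 10.42 in S113 clone 4, 10.70 and 10.77 in S113 clone 5, and 10.87 and 10.92 in TSS, against 9.11 and 9.13 in SWT clone 4 and 10.35 and 10.22 in SWT clone 5. The S95 lines lay below all others, and no 2 lines next to each other in order of level had overlapping arrays. The SWT clones differed from each other by 1.17 (clone 5 minus clone 4), more than the 0.88 by which S113 differed from SWT. Group means were 7.21 ± 0.46 over the S95 clones (SD, n = 3), 10.58 ± 0.21 over the S113 clones (SD, n = 2) and 9.71 ± 0.82 over the SWT clones (SD, n = 2). S95 was 5.63-fold lower than SWT (log2 difference -2.49, SE 0.39, adjusted p = 0.0096 by limma) and 10.4-fold lower than S113 (-3.37, SE 0.39, adjusted p = 0.0111). The call against SWT was lost without SWT clone 5 (-1.91, adjusted p = 0.063), and that against S113 without S113 clone 4 (-3.52, adjusted p = 0.111) or clone 5 (-3.22, adjusted p = 0.0694). S113 minus SWT was 0.88 (SE 0.43, adjusted p = 0.599) and TSS minus SWT was 1.19 (SE 0.53, adjusted p = 0.529).

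*Otx2* and *Gbx2* were the members whose levels correlated best, with a Pearson r of 0.92 over the 8 lines, a description of lines that share their parental cells. Their promoters are therefore shown, from the RefSeq table of build GRCm38.p6, which gives 250 bases before and 50 after a start. The table held 8 starts of 4 members, which were 4 of *Otx2* (the first and second windows overlap), 2 of *Sall2* and 1 each of *Gbx2* and *Zic5*. Printed are the *Gbx2* start, at chr1:89931127-89931426 on the minus strand, and the second of the *Otx2* starts, at chr14:48667459-48667758 on the minus strand. Capitals mark GCAAAT on either strand, a sequence that POU factors such as OCT4 bind as part of the octamer.
*Gbx2*: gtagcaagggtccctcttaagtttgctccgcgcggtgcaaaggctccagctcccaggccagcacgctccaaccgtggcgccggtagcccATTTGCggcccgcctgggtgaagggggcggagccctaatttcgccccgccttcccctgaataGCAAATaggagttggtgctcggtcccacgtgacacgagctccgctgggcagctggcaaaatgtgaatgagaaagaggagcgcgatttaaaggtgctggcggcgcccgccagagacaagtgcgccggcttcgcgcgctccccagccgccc
*Otx2*: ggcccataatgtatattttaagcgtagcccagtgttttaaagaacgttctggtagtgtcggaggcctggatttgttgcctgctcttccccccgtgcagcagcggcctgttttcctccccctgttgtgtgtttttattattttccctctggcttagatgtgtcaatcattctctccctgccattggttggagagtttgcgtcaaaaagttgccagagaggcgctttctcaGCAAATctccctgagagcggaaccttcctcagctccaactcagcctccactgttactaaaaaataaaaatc
*Gbx2* held 2 matches in opposite orientation and this *Otx2* window held 1, while the other 6 windows (3 of *Otx2*, 2 of *Sall2* and 1 of *Zic5*) held none, where 10.5% of the 32851 promoters in the table held at least 1. The full octamer ATGCAAAT, of which GCAAAT is the end, was in none of the 8 windows and in 1.74% of all promoters. The SOX letters CATTGT and CTTTGT, searched on both strands, were in none of the 8 windows either, against 12.6% and 18.7% of all promoters. TTCNNNGAA, a sequence that STAT factors bind, was found once, in the third *Otx2* start, and in 8.3% of all promoters. A match is a description of the letters and not of binding. The *Gbx2* window was 64.7% G and C with 27 CG dinucleotides, and the *Otx2* windows were 41.7% to 53.7% G and C, beside a median of 52.7% over the table. The 2 *Sall2* starts were far apart in composition, at 30.3% and 65.0% G and C.

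*Zic2* read lower in both mutants than in TSS and SWT, and lowest in S95. Its arrays read 4.97 and 4.22 in S95 clone 1, 4.56 and 4.68 in clone 2, and 4.45 and 4.32 in clone 4, of which 2 of 6 were detected. They read 4.98 and 5.38 in S113 clone 4, 5.01 and 5.42 in S113 clone 5 and 6.32 and 6.23 in TSS, against 6.39 and 6.40 in SWT clone 4 and 6.40 and 6.35 in SWT clone 5. The arrays of S95 clone 1 overlapped those of clones 2 and 4, which lay apart from each other, the 2 S113 clones overlapped each other just above them, and TSS lay slightly below SWT. The S95 clones averaged 4.53 ± 0.13 (SD, n = 3), the S113 clones 5.20 ± 0.03 (SD, n = 2) and the SWT clones 6.39 ± 0.01 (SD, n = 2). S95 minus SWT was -1.85 (SE 0.14, adjusted p = 0.00159 by limma), a call that held in all 21 alternatives tried, with values between -3.48 and -1.04. The size of this difference depends on how signal near the background is treated, since the deposited log2 values gave -3.48 and a larger offset of 50 gave -1.04. Some of the alternatives could not change the value, such as another probe rule for a gene with 1 probe or the fit without TSS. S113 minus SWT was -1.19 (SE 0.15) with an adjusted p of 0.123 by limma, and it was called without S95 clone 2 (adjusted p = 0.025), with the same value. S95 minus S113 was -0.66 (SE 0.14, adjusted p = 0.0356), and 9 of 21 alternatives lost this call. Among them were the arrays with the line as a random block (adjusted p = 0.112), the same with a replicate block (adjusted p = 0.132), the offset of 50 (-0.30, adjusted p = 0.072), and the fits without S95 clone 4, either S113 clone or either SWT clone (adjusted p between 0.0828 and 0.213). TSS minus SWT was -0.12 (SE 0.18, adjusted p = 0.884), and 0.16 after scaling by medians rather than quantiles. The probe for *Zic5*, the neighbouring gene, read 4.21 to 4.30 as line means, and none of its 16 readings passed detection.

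*Sall2* read below SWT in both mutants and in TSS, and only the S95 difference passed. Its arrays read 4.75 and 4.91 in S95 clone 1, 5.52 and 5.63 in clone 2, and 4.72 and 4.68 in clone 4. They read 5.40 and 4.77 in S113 clone 4, 5.30 and 5.27 in S113 clone 5 and 4.79 and 4.82 in TSS, against 6.11 and 6.23 in SWT clone 4 and 6.02 and 6.34 in SWT clone 5. All SWT arrays lay above all others, and among the rest S95 clone 2 was the highest line, 0.75 above clone 1 and 0.87 above clone 4. The S95 clones averaged 5.03 ± 0.47 (SD, n = 3), the S113 clones 5.19 ± 0.14 (SD, n = 2) and the SWT clones 6.18 ± 0.0034 (SD, n = 2). S95 minus SWT was -1.14 (SE 0.27, adjusted p = 0.0281 by limma), S113 minus SWT -0.99 (SE 0.29, adjusted p = 0.37) and TSS minus SWT -1.37 (SE 0.36, adjusted p = 0.381). S95 minus S113 was -0.15, with a 95% interval of -0.79 to 0.49. Like *Zic2*, it lies near the background, and S95 minus SWT was -1.91 in the deposited log2 values and -0.66 with the offset of 50. The S95 call was lost in 8 of 21 alternatives, which were no detection filter (adjusted p = 0.0561), clones 1 and 4 averaged as 1 line (adjusted p = 0.0607), and leaving out S95 clone 1 or 4, S113 clone 4 or 5, or SWT clone 4 or 5 (adjusted p between 0.053 and 0.147). The S113 difference was called without S95 clone 2 (adjusted p = 0.0299).

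*Pou3f1* split the S95 clones. The arrays read 7.20 and 7.44 in clone 1 and 7.27 and 7.20 in clone 4, but 6.26 on both arrays of clone 2. They read 7.18 and 7.21 in S113 clone 4, 7.66 and 7.50 in S113 clone 5 and 7.57 and 7.52 in TSS, against 6.61 and 6.72 in SWT clone 4 and 6.71 on both arrays of SWT clone 5. Clone 2 was thus the lowest of the 8 lines, 2.08-fold below clone 1, while clones 1 and 4 overlapped S113 clone 4. The S95 clones averaged 6.94 ± 0.59 (SD, n = 3), the S113 clones 7.39 ± 0.28 (SD, n = 2) and the SWT clones 6.69 ± 0.03 (SD, n = 2). S95 minus SWT was 0.25 (SE 0.33, adjusted p = 0.598 by limma), with a 95% interval of -0.53 to 1.04. Without S95 clone 2 it was 0.59 and was called (adjusted p = 0.0319), and with clone 2 alone it was -0.42 (adjusted p = 0.164). S95 minus S113 was -0.45 (SE 0.33, adjusted p = 0.367), and with clone 2 alone it was -1.13 and was called (adjusted p = 0.0145). S113 minus SWT was 0.70 (SE 0.36, adjusted p = 0.612) and TSS minus SWT 0.86 (SE 0.44, adjusted p = 0.585). The levels of *Pou3f1* and *Sall2* were negatively correlated over the 8 lines, with a Pearson r of -0.71.

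**Figure D2:**
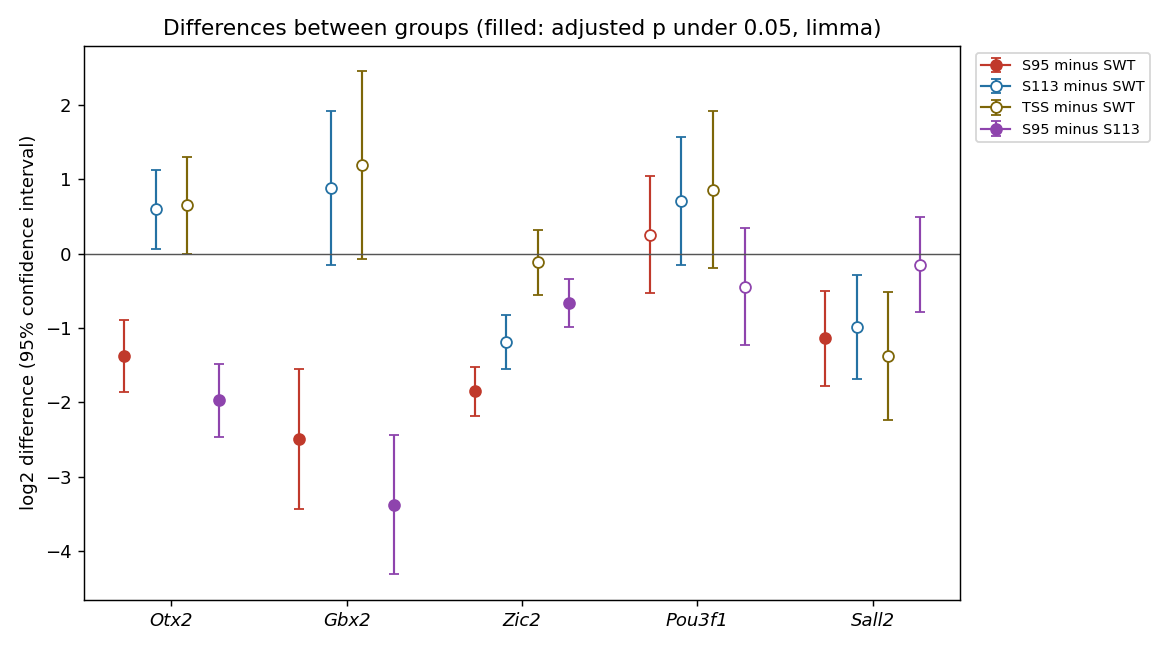
Log2 differences (vertical axis) of the 5 tested members in S95 minus SWT, S113 minus SWT, TSS minus SWT and S95 minus S113, with 95% confidence intervals from limma. Filled points passed an adjusted p of 0.05, which were 4 members in S95 minus SWT, 3 in S95 minus S113 and none in the others. S95, S113 and TSS share the same SWT clones.

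The S95 and S113 comparisons share the 2 SWT clones, so their values are given side by side only. *Otx2* and *Gbx2* were lower in S95 and read 0.59 and 0.88 above SWT in S113. *Zic2* and *Sall2* were below SWT in both mutants, and *Sall2* in TSS too. The direct comparison of S95 with S113 gave -3.37 for *Gbx2*, -1.97 for *Otx2* and -0.66 for *Zic2*, and neither *Sall2* nor *Pou3f1* passed in it.

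*Otx2*, *Sall2*, *Zic2* and *Zic5* lie on chromosome 14, where 2 of the S95 clones had a long stretch of genes below SWT. Of the 316 tested genes of the chromosome, *Otx2* was number 122 in order, *Sall2* number 142 and *Zic2* number 313, with no tested gene between *Zic2* and *Zic5*. The median of up to 21 genes read -0.67 at *Otx2* and -0.60 at *Sall2* in S95 clone 1, and -0.56 and -0.62 in clone 4. Its longest low run, from number 160 to 273 in clone 1 and to 274 in clone 4, held none of the members. Over the whole chromosome the median difference from SWT was -0.37 in S95 clone 1, -0.03 in clone 2 and -0.33 in clone 4, and it lay within 0.03 of 0 in every S113, TSS and SWT line.

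**Figure D3:**
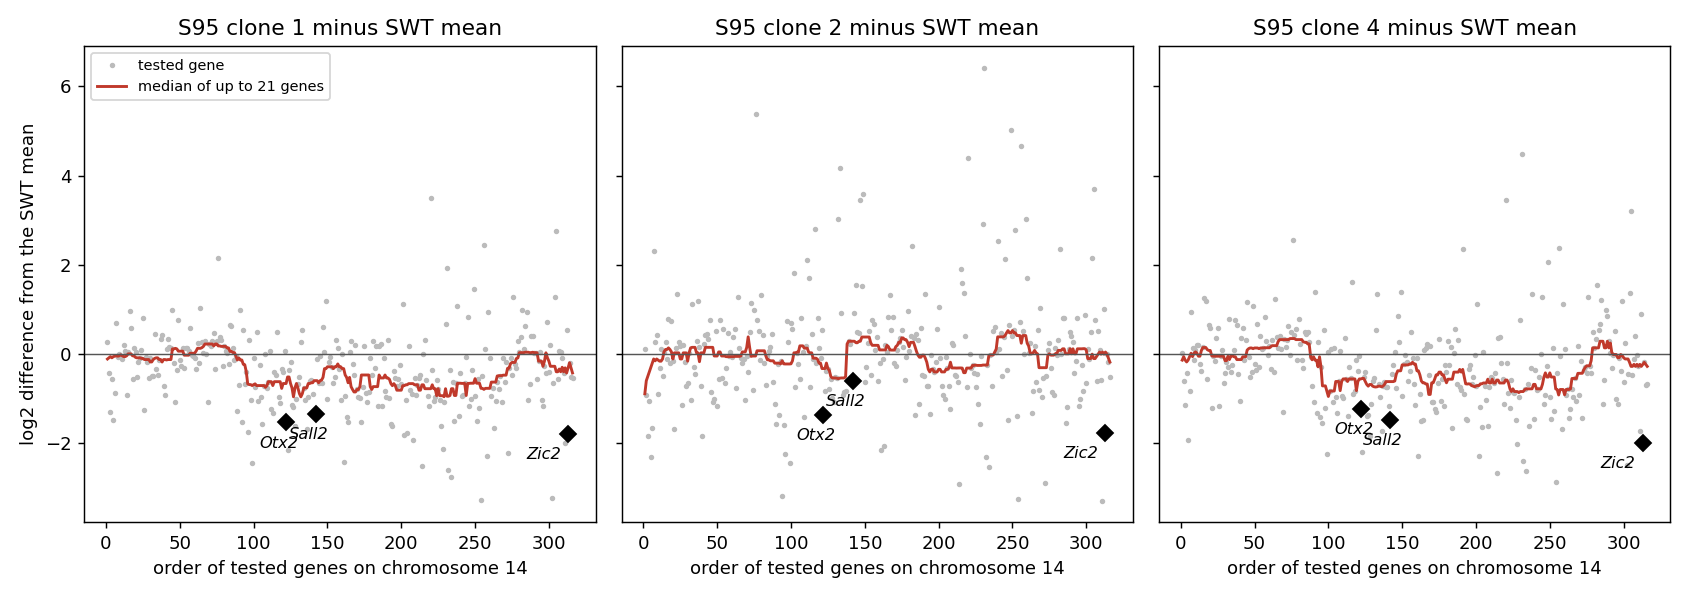
Log2 difference from the SWT mean (vertical axis) of the 316 tested genes of chromosome 14 in their order along it, in S95 clones 1, 2 and 4. The line is the median of up to 21 genes, and black diamonds are *Otx2*, *Sall2* and *Zic2*. In clones 1 and 4 the line runs below 0 around *Otx2* and *Sall2*, and at *Zic2* it is at -0.32 in clone 1 and -0.24 in clone 4. In clone 2 the line is at -0.33 at *Otx2* and at 0.28 at *Sall2*.

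The 20 tested genes nearest to *Otx2* had a median difference from SWT of -0.59 in S95 clone 1, -0.27 in clone 2 and -0.56 in clone 4. *Otx2* itself differed by -1.54, -1.37 and -1.23 in these clones, in that order, and 2, 0 and 5 of the 20 neighbours lay below it. Its difference was therefore larger than that of most of its neighbours in each clone, and about as large in clone 2. For *Sall2*, the 20 neighbours had medians of -0.60 in clone 1, 0.38 in clone 2 and -0.54 in clone 4, and the gene differed by -1.35, -0.60 and -1.47 there. Among the S95 clones, its larger differences were in clones 1 and 4. In S113 clone 4, S113 clone 5 and TSS, where the neighbours read 0.12, 0.37 and -0.07, *Sall2* differed by -1.09, -0.89 and -1.37. For *Zic2*, whose place near the chromosome's end leaves 13 neighbours, these read -0.20, 0.09 and -0.19 in S95 clones 1, 2 and 4, and *Zic2* differed by -1.79, -1.77 and -2.00. With S95 clones 1 and 4 left out together, an alternative chosen after seeing the data, clone 2 alone against SWT gave -1.37 for *Otx2* (adjusted p = 0.0133 by limma), -2.97 for *Gbx2* (0.00778), -1.77 for *Zic2* (0.00201) and -0.60 for *Sall2* (0.0391). That fit assumes that a lone clone varies like the other groups, and it called 3905 of 9303 genes. Clones 1 and 4 share the low stretch and count as separate lines in the main fit, which called 23.1% of genes in S95 against SWT and 9.26% in S95 against S113. With clones 1 and 4 averaged as 1 line, these shares were 17% and 2.78%. The arrays measure RNA and not DNA copies, and the number of copies of the stretch was not tested.

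None of the relatives of the members passed in any comparison. The 4 tested of 11 relatives were *Otx1*, *Pou3f2*, *Sall1* and *Sall4*, and they had a median of -0.14 in S95 minus SWT. *Sall1*, a spalt factor like *Sall2*, read 7.60 in S95 and 7.85 in SWT, and *Sall4*, the spalt factor of pluripotent cells, read 11.7 in S95 and 11.3 in SWT. *Otx1* read 5.21 in S95 and 5.74 in SWT. The probes for *Crx*, *Gbx1*, *Zic4*, *Pou3f3* and *Pou3f4* were detected on none of the 16 arrays, and that for *Zic1* on 2 of the 6 S95 arrays only.

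Other genes of the formative and primed epiblast were mixed. Of 15 tested among 22, S95 was above SWT in 1 and below it in 2, with a median of -0.73. Among all tested genes, 23.1% were called in this comparison and 12.1% were lower, and 5.08% were lower in S95 than in S113. *Dnmt3b*, a DNA methyltransferase that rises as the naive state ends, differed by 1.37 (SE 0.21, adjusted p = 0.00943 by limma), with means of 12.8 in S95 and 11.4 in SWT. It differed by 0.12 between S95 and S113 (adjusted p = 0.723), and by 1.25 in S113 (0.168) and 1.19 in TSS (0.358) against SWT. *Grhl2*, a factor that holds epithelial enhancers open in the epiblast, differed by -1.98 (SE 0.30, adjusted p = 0.00876), and *Etv5*, an ETS factor downstream of FGF and ERK signalling, by -1.70 (SE 0.42, adjusted p = 0.0316). These 3 calls were lost without SWT clone 4 or 5, where none of the list passed. *Fgf5*, the ligand that marks the primed epiblast, read 5.23 in S95 and 4.43 in SWT (adjusted p = 0.178), and 5.89 in S113 (adjusted p = 0.37 against SWT). It was detected on 4 of 6 S95 arrays, all 4 S113 arrays, both TSS arrays and 0 of 4 SWT arrays. Against S113, *Grhl2* (-1.63), *Etv5* (-1.76) and *Nodal* (-1.35), the TGF-beta ligand of the epiblast, were lower in S95, and none passed without S113 clone 4, S113 clone 5, SWT clone 4 or SWT clone 5. No gene of the list passed in S113 or TSS against SWT.

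Naive pluripotency factors were mostly lower or uncalled in S95. Against SWT, 12.1% of all tested genes were called lower in S95 and 23.1% were called in either direction. Of 13 naive genes tested among 17, 4 were lower and 1 was higher in S95 than in SWT, with a median of -1.80. The lower genes were *Nr5a2* (-3.00, adjusted p = 0.0191 by limma), *Esrrb* (-2.24, 0.0353), *Zfp42* (-2.07, 0.0237) and *Klf2* (-1.80, 0.0145), all of the naive ESC circuit, and *Tbx3* was higher by 0.88 (0.0364). *Nanog* differed by -1.83 (SE 0.71, adjusted p = 0.104) and *Pou5f1*, which encodes OCT4, by -0.73 (SE 0.50, adjusted p = 0.312). Against S113 the differences in S95 were -1.53 for *Nanog* (0.186), -0.76 for *Pou5f1* (0.325) and -2.01 for *Zfp42* (0.0439), the one gene of the list that passed there. Without S95 clone 2, *Nanog* was lower in S95 than in SWT (-1.02, 0.00553) and than in S113 (-0.72, 0.0268). For the list against S113, none passed without S95 clone 4 or any one S113 or SWT clone. Against SWT, *Nanog* differed by -0.29 in S113 (0.953) and 0.13 in TSS (0.984), and *Pou5f1* by 0.03 in S113 (0.992) and 0.34 in TSS (0.909). None of the 5 calls of S95 against SWT held without SWT clone 4 or without SWT clone 5. The median of the naive list was -2.52 in S95 clone 2, against -0.67 in clone 1 and -0.88 in clone 4, whereas the members' median was -1.37 in clone 2, -1.54 in clone 1 and -1.47 in clone 4.

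Markers of other cell types moved in the same clones. The share of all tested genes called in either direction was 23.1% in S95 against SWT and 9.26% in S95 against S113. Of 15 tested genes of the extraembryonic and anterior visceral endoderm among 17, S95 was above SWT in 9 and below it in 1, with a median of 3.34. *Dab2*, an endocytic adaptor (5.18, adjusted p = 0.0019 by limma), *Sparc*, a matrix protein (3.29, 0.0077), *Amn*, a part of the cubilin receptor (4.29, 0.00876), and *Sox7*, an endoderm transcription factor (3.78, 0.0125), were among the higher ones, and *Lefty1* (-1.06, 0.03) was the lower one. *Hhex*, *Gsc* and *Cer1*, the list's other markers of the anterior visceral endoderm, did not rise as those genes did. They read 8.30, 5.73 and 4.55 in S95, against 8.06, 7.09 and 4.53 in SWT. The summed linear level of the list's 16 probes was 28110 to 59840 in the S95 clones, 7519 to 20720 in the S113 clones, 5430 in TSS and 5216 to 6986 in the SWT clones. Among the list's transcription factors, *Gata4* and *Foxa2* were detected on all 6 S95 arrays, on 2 of 4 S113 arrays, and on none of the TSS and SWT arrays. Others were detected in SWT too, *Gata6* and *Hnf4a* on all 16 arrays, *Sox7* on 3 of 4 SWT arrays and *Sox17* on 2 of 4. Without SWT clone 4 there was 1 higher call, and without SWT clone 5 there were 3. Of 8 tested trophectoderm genes among 10, 6 were higher, among them the keratin genes *Krt18* (5.21, adjusted p = 0.00255), *Krt8* (4.49, 0.00482) and *Krt7* (1.96, 0.0185) and the transcription factor gene *Gata3* (1.42, 0.0121), and 2 without SWT clone 4 or 5. The summed level of the 10 trophectoderm probes was 5205 to 9354 in S95, 2470 to 3318 in S113, 4608 in TSS and 2416 to 3153 in SWT, and *Elf5* and *Hand1* were detected on no array. *Tfap2c* read 10.2 in S95 and 11.2 in SWT. *Krt8* also read 9.82 in S113 and 9.66 in TSS, against 7.50 in SWT. Among 4 tested neuroectoderm genes of 12, *Stmn2* was lower (-2.50, adjusted p = 0.0215), a call lost without SWT clone 4 or 5 and without a detection filter, and *Pax6* and *Fabp7* were detected on no array. None of 4 tested primitive streak and mesoderm genes of 8 passed. Against S113, S95 was higher in *Dab2* (1.85, adjusted p = 0.0451), *Sparc* (2.03, 0.0453) and the laminin gene *Lamb1* (2.80, 0.039) of the endoderm list and in *Krt18* (3.15, 0.0196), *Gata3* (1.48, 0.0215) and *Krt7* (1.80, 0.0409) of the trophectoderm list, and lower in the neuronal gene *Map2* (-0.81, 0.0484). Without S95 clone 4, S113 clone 4, S113 clone 5, SWT clone 4 or SWT clone 5, each left out in turn, 0 or 1 gene of each list was higher there, and *Map2* passed in none of these fits nor without S95 clone 1. Only RNA was measured, so these markers do not show which cells were present. Whether cells of other types had a part in the lower members was not tested. In RNA of a whole culture, fewer cells that express a gene and less of its RNA per cell cannot be told apart.

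**Figure D4:**
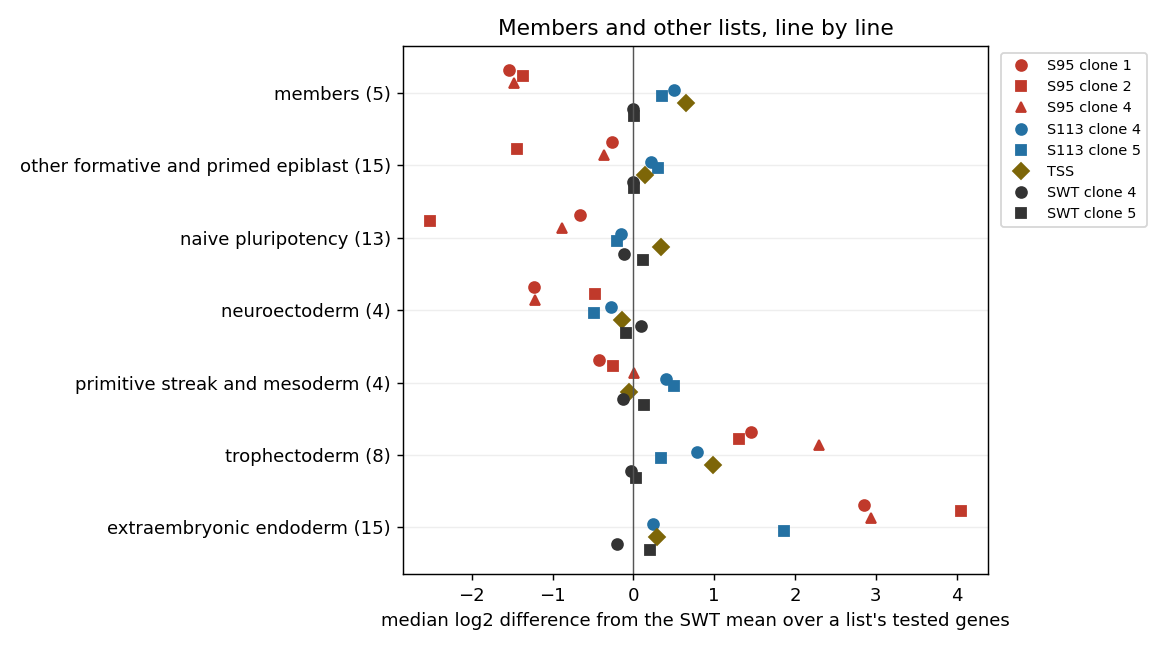
Median log2 difference from the SWT mean (horizontal axis) over the tested genes of the members and of 6 other lists, for each of the 8 lines, with the number of tested genes in parentheses. The members' medians are -1.54, -1.37 and -1.47 in S95 clones 1, 2 and 4, and 0.51, 0.35 and 0.65 in S113 clone 4, S113 clone 5 and TSS. Medians of the extraembryonic endoderm list run from 2.86 to 4.06 in S95.

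For each member the 3 genes whose 8 line means correlated best with its own are named, as a description over 8 lines that share their parental cells and, in part, their groups. For *Otx2* these were *Atm*, *Xpo4* and *Gm1322* (Pearson r 0.98 in each), of which *Xpo4* also lies on chromosome 14, as number 196 in order. For *Gbx2* they were *Apc*, *Twnk* and *Brix1* (0.99, 0.99 and 0.98). For *Zic2* they were *Fblim1*, *Srgap3* and *Spidr* (0.99, 0.98 and 0.98), for *Pou3f1* *Eif4a3*, *G3bp2* and *Gm428* (0.97, 0.97 and 0.96), and for *Sall2* *Tmem229b*, *Sp8* and *Chrac1* (0.98 in each). Most of these genes varied less than the member they followed. *Brix1* ranged between 11.9 and 12.5 over the lines on the log2 scale, while *Fblim1* ranged between 8.13 and 10.3 and differed from SWT by -1.94 in S95, -1.20 in S113 and -0.13 in TSS, close to the values of *Zic2*.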

How the data were processed

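The authors deposited scanner intensities for 25697 probes, which by their processing notes BeadStudio 3.2 summarized, with no normalization. The authors deposited a detection p-value beside each intensity and, in a second table used as an alternative, normalized log2 values. The clones labelled S95 were taken as the study's S98/102 mutant. In R 4.3.3, neqc of limma 3.58.1 corrected the background by means of the detection p-values, added an offset of 16, took log2 and normalized by quantiles. Of the probes, 23978 name a gene and 23962 matched the RefSeq table. A probe was kept if both arrays of 2 or more lines detected it (12673 probes), and a gene's brightest probe stood for it, which left 9303 genes. The means of the 8 lines entered one limma fit (lmFit, eBayes) with a mean per group, two-sided, with Benjamini-Hochberg adjustment over all tested genes. The spread of TSS, a single line, was taken to be that of the other groups. The number of arrays limits the precision. The members and lists were chosen with earlier results of these data known. Named by rule were all members, from each list up to 4 passing genes a comparison with the smallest p, *Sox2*, *Pou5f1*, *Nanog* and *Dnmt3b*, and the 3 genes most like each member. *Tbx3*, *Lefty1*, *Hhex*, *Gsc*, *Cer1*, *Tfap2c*, *Fgf5*, the members' relatives and genes named for their detection were chosen after their values were seen. The fit was tested on simulated data, and the outcome is not given here. Alternatives changed the values, background, normalization, filter, probe rule, fit and lines.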

Additional observations from a re-analysis of the deposited data

Results flagged for a closer look

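The effects of the 2 mutants differed in the direct comparison of S95 with S113 for *Otx2* (log2 difference -1.97), *Gbx2* (-3.37) and *Zic2* (-0.66). The lowest of the 4 SWT arrays of *Pou3f1*, in clone 4, stood apart from the other 3 by 0.876 of the whole range of the 4 arrays, which read between 6.61 and 6.72, and chance sets about 1 in 20 such groups apart.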

How the results depend on the processing

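Across 21 alternatives for each comparison with S95 or S113 and 20 for TSS, 463 values kept their direction and their side of the threshold, 22 lost a call, 10 gained one, 4 turned round and 17 moved. Not every alternative could change a value, so the values that were kept are no measure of robustness alone. Each member has 1 probe, so the probe rules kept its value, and leaving out TSS, a single line, left the other comparisons unchanged. Arrays as independent samples counts the 2 arrays of a line as replicates. Without S95 clone 2, 5 members were called in S95 against SWT, where 34.2% of all genes were called. In the same fit 2 members were called in S113 against SWT (*Zic2* and *Sall2*), where 1.58% of all genes were. Fewer members, and a smaller share of all genes, were called in S95 against SWT when 1 SWT clone was left out. The same held in S95 against S113 when 1 S113 clone was left out. Each of those fits leaves 1 clone in a group. No member was called in TSS against SWT with any 1 clone left out. With arrays as independent samples, 3 members were called in S113 against SWT (*Otx2*, *Zic2* and *Sall2*), where 11.9% of all genes were. That fit called 3 members in TSS against SWT (*Otx2*, *Gbx2* and *Sall2*), where 13% of all genes were called. Values that turned round were *Sall2* in S95 minus S113 (leave-one-out values of -0.42 to 0.0161, the highest without S95 clone 4, and 0.39 without clones 1 and 4), *Pou3f1* in S95 minus SWT (-0.42 without clones 1 and 4) and *Zic2* in TSS minus SWT (0.16 with a median shift). None of them was called. The median shift moved the median of all genes to 0.10 in S95 minus SWT and to 0.15 in TSS minus SWT, against -0.01 and 0.00 with quantile normalization. The medians of the neighbours moved by more than the gap between arrays with 5 or 20 genes on each side. With 5 they read -0.69 and -0.67 for *Otx2* in S95 clones 1 and 4, -0.63 for *Sall2* in clone 1 and -0.10 for *Zic2* in clone 2. With 20 they read -0.74, -0.22 and -0.71 for *Otx2* in clones 1, 2 and 4, -0.63 and -0.25 for *Sall2* in clones 1 and 2, and -0.11 for *Zic2* in clone 2, so the sign for *Sall2* and *Zic2* in clone 2 depends on the width. The cause was not tested. Replicate numbers are shared by all lines, and 4 of 28 pairs of lines had same-numbered arrays that deviated together at a correlation over 0.1 (-0.19 to 0.22). Whether same-numbered arrays of some lines shared a batch is not given in the labels. Adding the replicate block to the fit of arrays with the line as a random block changed no member's call in any comparison (*Zic2* in S95 minus S113 had an adjusted p of 0.132 with it and 0.112 without it by limma). The chip could not be tried as a block, since the headers name none. Signal over background limits *Zic2*, *Zic5* and *Sall2*, and 2 or 3 clones a group limit the rest.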
